A study of Mus musculus with 16 samples.

Results

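Oxidative phosphorylation is the last stage of respiration in the inner mitochondrial membrane. Complexes I and II take electrons from NADH and succinate, complexes III and IV pass them to oxygen while protons are pumped, and complex V, the ATP synthase, uses the proton gradient to make ATP. Most subunits are encoded in the nucleus, while a small core of complexes I, III, IV and V is encoded by the mitochondrial genome, so that 2 genomes supply the parts of a single enzyme. Genes of this machinery were taken from the count table by name: all symbols beginning with Nduf, Uqcr, Cox4 to Cox8 or Atp5, the 4 genes Sdha, Sdhb, Sdhc and Sdhd, and the 13 protein genes of mitochondrial DNA. This gave 105 genes of the 35976 in the table, 92 nuclear and 13 mitochondrial. Sorted by name alone, the nuclear genes comprised 38 of complex I, 7 complex I assembly factors (Ndufaf) and 4 of complex II. A further 8 were of complex III, 18 of complex IV and 17 of complex V. A name may not match the complex in which the protein acts.

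The samples were neural tube organoids collected on day 4 and grown from R1, a line of mouse embryonic stem cells whose genotype is given as FOXA2-Venus, a fluorescent reporter of FOXA2. All of them had received retinoic acid (18 hours), so no untreated group was compared. Cells were divided by FOXA2, a transcription factor of the floor plate, into negative, low, medium and high gates of 4 libraries each, and the labels do not say how the cells were separated. A single line with 1 reporter is a single genetic background. RNA was read by BRB-seq, a bulk method in which barcoded samples are pooled early and reads come mostly from the 3′ end of the transcript. Levels are given in CPM, counts scaled to a common library size. Foxa2, the gene behind the gates, spanned 1.63 to 5.26 CPM in negative, 9.11 to 14.8 in low, 38.4 to 59.9 in medium and 100 to 140 in high libraries, with no overlap. Whether libraries of a gate came from separate cultures is not labelled, and p-values then rest on library-to-library spread that may be technical.

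Totals ran from 3268948 to 9961032 counts per library. The libraries low 1, medium 2 and negative 3 lay away from the rest of their gates on the third principal component, which held 9.01% of the variance. These libraries also had the lowest nuclear sum of their gates, and they held the lowest value of the gate for 61, 76 and 57 of the 89 tested nuclear genes. Results are therefore given with and without these 3 libraries where a count moved. On the second component, which held 9.94% of the variance, high 2 was at 36.5 against 2.09 to 11.3 in the rest of its gate. There negative 4 was at 0.204 against 15.7 to 20.6. High 2 and negative 4 were left out singly only. Markers of pluripotent cells, endoderm, neural progenitors and notochord changed with the gates. Of 10 pluripotent markers, 9 were tested and all 9 fell in the low, medium and high gates against the negative gate (edgeR), and their summed level went from 550 to 972 CPM in the negative gate to 48.0 to 79.7 in the high gate, where Pou5f1 was listed at 0. Of 10 endoderm markers 6 were tested and 4 rose in high against negative, with sums of 49.7 to 52.8 and 302 to 317 CPM. Means of the other 2, Gata4 (3.96 to 2.13 CPM) and Cxcr4 (2.19 to 1.88), were lower in high and not called. Sox17 (134 CPM) and Cldn6 (148) made up most of the high sum, and Hnf4a was listed at 0 in the high gate. All 5 tested neural progenitor markers fell in that comparison, from 272 to 305 CPM to 70.9 to 104, while Sox1 and Sox2 were listed at 0 in all libraries. All 3 tested notochord markers rose, from 1.53 to 2.94 CPM to 31.7 to 41.6, with Noto at 0. The part of these cell types in any change below was not tested, and in bulk samples fewer cells of a type and less RNA per cell cannot be told apart.

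Several of these genes have near-identical copies elsewhere in the genome. Mouse chromosome 1 carries a copy of mitochondrial DNA, annotated in GENCODE M21 as 7 pseudogenes at chr1:24611535-24616197 (GRCm38, minus strand, 4663 bases), and none of these pseudogenes has a row in the count table. The copy holds nearly the whole of ND3, ND4L, COX2, COX3 and ATP6, over 99.0% to 99.9% of each gene. COX2, subunit 2 of cytochrome c oxidase (chrM:7013-7696, plus strand), and its copy Gm28661 (chr1:24614885-24615565, minus strand) matched over all 681 aligned bases. The last 90 aligned bases are printed 5′ to 3′ to show that this end is the same in both.
COX2: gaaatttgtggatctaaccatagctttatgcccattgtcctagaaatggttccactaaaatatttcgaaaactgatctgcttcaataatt
Gm28661: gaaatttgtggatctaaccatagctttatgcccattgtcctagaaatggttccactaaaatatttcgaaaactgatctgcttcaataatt
ND3, a complex I subunit (chrM:9459-9806, plus strand), differed from its copy Gm28438 (chr1:24612775-24613119, minus strand) at 1 of 345 aligned bases. The difference is T3C, counted from 1 at the first base of ND3, and it stands in capitals in the first 60 bases.
ND3: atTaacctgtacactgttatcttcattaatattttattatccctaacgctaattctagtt
Gm28438: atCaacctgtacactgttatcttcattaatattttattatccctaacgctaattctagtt
ND1, the complex I subunit with most of the mitochondrial counts (chrM:2751-3707, plus strand), has no copy among these pseudogenes, and its last 90 bases are shown for contrast.
ND1: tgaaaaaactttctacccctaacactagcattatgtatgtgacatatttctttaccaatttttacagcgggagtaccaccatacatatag

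The counts of the mitochondrial genes fell into sets along this line. The 5 genes copied nearly whole held 47 of 1947919 mitochondrial counts over the 16 libraries, or 0.00241%: ND4L had 0, COX2 had 1, COX3 had 2, ND3 had 3 and ATP6 had 41. The 5 genes with no copy there, ND1, ND2, ND5, ND6 and CYTB, held 96.3%, from 780 counts for ND6 to 1567893 for ND1. Genes with an annotated copy of only a part lay on both sides. ND4, copied over its first 876 of 1378 bases and not at its 3′ end, had 60781 counts. COX1, the catalytic subunit of cytochrome c oxidase, is copied over its last 483 bases at 99.8% identity, yet had 11767 counts. ATP8 also had 0 counts, which like that of ND4L allows up to 3 (counting error only). Only its last 43 bases, which overlap ATP6, match an annotated copy. The search covered annotated transcripts alone, and no pseudogene is annotated between Gm10925, the copy of ATP6 (to chr1:24614651), and Gm28661 (from chr1:24614885). ATP8 lies between COX2 and ATP6 in mitochondrial DNA, so whether the rest of it is copied there was not examined. How reads with more than 1 match were counted is not given in the sources used here, and the part of the copies in these counts was not tested. The counts of the 5 copied genes are not read as levels of their RNA here.

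**Figure D1:**
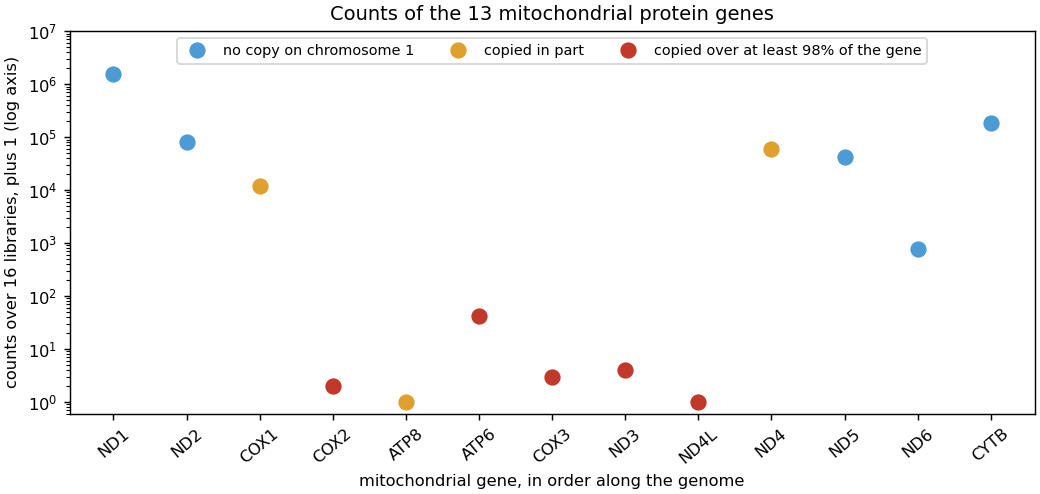
Counts of the 13 mitochondrial protein genes summed over 16 libraries, plus 1, on a log axis, in order along the mitochondrial genome. Colours give whether the gene has an annotated copy on chromosome 1. The genes copied over at least 98% of their length lie at 41 counts or fewer, and those with no copy lie at 780 or more.

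Near-identical copies were less frequent among the nuclear genes. Of 91 nuclear genes with a transcript in GENCODE M21, 10 shared at least 100 of their last 300 bases with another gene at 98% identity or more: Ndufb11, Ndufs3, Ndufs5, Uqcr11, Uqcrb, Cox6c, Cox7c, Atp5g2, Atp5h and Atp5l. Their counts can be split or lost in counting and are uncertain. Ndufs5 had 195 counts, Atp5l 1619 and Atp5g2 1663. Cox7c, which matched Gm10012 over 298 bases at 99.3% identity, had 54442, and the most counted of the 10 had 57411. The median was 18682 counts with such a copy and 24738 without. Some of the nuclear genes share short motifs upstream of their starts. RefSeq promoters (GRCm38.p6, 300 bases, 250 of them before the start) were found for 73 of the 92 and searched on both strands. The NRF1 motif GCGCANGCG was in 22 (30.1%), against 7.03% of 27025 genes with a promoter and 9.63% of the 17492 coding genes among them. The ETS motif CCGGAAG was in 17 (23.3%) against 9.93% of all and 12.9% of coding genes, and the YY1 motif AAGATGGCG in 7 (9.59%) against 1.64% and 2.14%. At least 1 of the 3 motifs was in 38 of the 73 and all 3 in 0, and the promoters of Atp5g1, Cox7a1, Cox7a2l and Cox7b2, called genes described below, held none. A match is a description of letters, not of a bound site.

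Expression was filtered by edgeR's default rule, which kept 96 of the 105 genes (89 nuclear, 7 mitochondrial) among 13891 genes. The nuclear genes not tested were Cox6a2, Cox8b and Cox8c, with 15, 0 and 29 counts in all. The mitochondrial genes not tested were the 5 copied ones and ATP8. The summed level of the machinery overlapped between all gates. Nuclear genes summed to 30395 ± 1613 CPM in negative, 28586 ± 1464 in low, 29796 ± 3836 in medium and 29670 ± 458 in high libraries (SD, n = 4). The ranges of low and negative were 26426 to 29669 and 28106 to 31660, and those of the other pairs of gates overlapped too. The overlap of medium with low and with high rested on medium 2 alone (24103). The rest of the medium gate was at 31092 to 32439, above all low libraries and all high ones (28998 to 30015). Mitochondrial genes summed to 20112 ± 1649, 19563 ± 3452, 18622 ± 3533 and 20494 ± 1509 CPM in the same order, again with overlap. ND1 made up between 79.2% and 81.0% of that sum on average in each gate, so the sum mainly follows ND1. The ratio of mitochondrial to nuclear sums averaged 0.661 ± 0.0283, 0.682 ± 0.0963, 0.627 ± 0.0980 and 0.691 ± 0.0534 from negative to high.

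**Figure D2:**
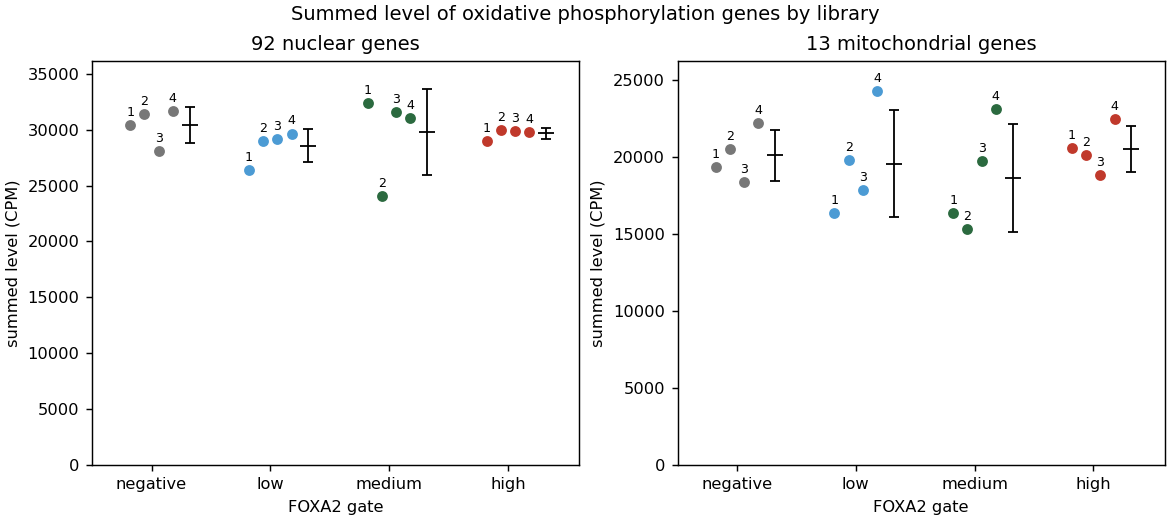
Summed level (CPM) of the 92 nuclear and 13 mitochondrial genes in each library by FOXA2 gate; numbers are library numbers and bars are mean ± SD (n = 4). The gates overlap in both panels, and medium 2 (24103) and low 1 (26426) have the lowest nuclear sums. In the nuclear panel medium overlaps low and high only through medium 2.

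The sums by complex, over nuclear genes alone, did not all follow the order of gates of the whole nuclear sum. The mean of complex I was highest in medium (11099 ± 1694 CPM), where medium 2 was at 8582, and that of complex III was lowest in high. The mitochondrial genes of complexes I, III, IV and V are not in these sums, and ND1 alone averaged 16326 CPM in negative. The nuclear genes of complex I, the NADH dehydrogenase, summed to 10987 ± 637 CPM in negative and 10996 ± 193 in high. Complex II, succinate dehydrogenase, was at 675 ± 39.0 and 636 ± 28.1, and complex III, the cytochrome bc1 complex, at 3299 ± 243 and 3036 ± 55.3. Complex IV, cytochrome c oxidase, was at 7596 ± 458 and 7327 ± 116, and complex V at 7491 ± 318 and 7366 ± 167. For each complex the negative and high ranges overlapped. The complex I assembly factors, which build the enzyme and are not part of it, were at 346 ± 18.9 CPM in negative and 310 ± 22.1 in high, with ranges of 323 to 366 and 290 to 337.

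High and negative cells are the ends of the FOXA2 scale. Between them 1 of 89 tested nuclear genes rose and 3 fell at an adjusted p under 0.05, against 8.42% of all tested genes called higher and 8.55% called lower. Cox7a2l rose, and Uqcrq, Atp5g1 and Cox7b2 fell. The median log2 fold change was -0.04 for the nuclear genes and 0.00 for all genes, and 50 of 89 (56.2%) lay below 0 against 49.7% of all genes. In 73 of 89 the estimate lay within 0.25 of 0 on the log2 scale, and in 71 the 95% confidence interval lay within 0.5. At an unadjusted p under 0.05 there were 5 higher and 8 lower.

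Cox7a2l encodes a protein that links complexes III and IV into supercomplexes (chr17:83501918-83517330, minus strand). Its level was 218, 200, 192 and 195 CPM in the negative libraries, 203, 206, 213 and 196 in low, 239, 214, 250 and 216 in medium and 240, 285, 238 and 250 in high. All high libraries lay above all negative and low ones. The log2 fold change of high against negative was 0.33 (SE 0.0956, adjusted p = 0.0149), a rise from 201 to 253 CPM on average. Without high 2, the highest library, it was 0.27 with an adjusted p of 0.0768 and was no longer called. In high against low Cox7a2l also passed the test, at 0.31 (adjusted p = 0.0467), a call that held in 7 of 25 alternative fits.

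Uqcrq encodes a small subunit of complex III (chr11:53427922-53430831, minus strand). It was at 338, 317, 274 and 353 CPM in negative, 235, 273, 272 and 295 in low, 289, 202, 300 and 300 in medium and 236, 224, 246 and 236 in high. All high libraries lay below all negative ones, and the low and medium gates overlapped both. The log2 fold change of high against negative was -0.44 (SE 0.115, adjusted p = 0.00657). This call held in all 25 alternative fits, between -0.51 and -0.40.

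Atp5g1 encodes subunit c, which forms the rotating ring of the ATP synthase (chr11:96068852-96075670, minus strand). Its level was 926, 963, 881 and 937 CPM in negative, 689, 803, 822 and 868 in low, 852, 588, 857 and 842 in medium and 719, 684, 775 and 657 in high. The 4 negative libraries lay above the other 12. The fold change of high against negative was -0.39 on the log2 scale (SE 0.106, adjusted p = 0.0105), and it was called in all 25 alternative fits. Against negative, low and medium were at -0.22 and -0.24 with adjusted p of 0.334 and 0.184. Atp5g2 and Atp5g3 encode the same mature subunit. They had log2 fold changes of 0.28 (SE 0.195, adjusted p = 0.369) and 0.04 (SE 0.134, adjusted p = 0.883) in high against negative, and Atp5g2 is among the genes with a near-identical copy.

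Cox7b2, the testis-type isoform of a complex IV subunit (chr5:71442824-71548205, minus strand), had only 167 counts in all. It was at 3.88, 2.94, 2.36 and 3.06 CPM in negative, 1.77, 0.881, 2.11 and 0.723 in low, 1.77, 2.14, 1.03 and 0.565 in medium and 0.83, 1.26, 0.154 and 0.304 in high. The negative libraries lay above all others. The log2 fold change of high against negative was -2.27 (SE 0.590, adjusted p = 0.00683), and it was called in all 24 alternative fits that gave a value, between -2.75 and -1.88. Its counterpart Cox7b, with 26026 counts, was at 271 ± 36.2 CPM in negative and 273 ± 25.6 in high (log2 fold change 0.01, SE 0.121, adjusted p = 0.970). Pluripotent marker sums fell over the same gates (above), and their part in this fall was not tested.

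**Figure D3:**
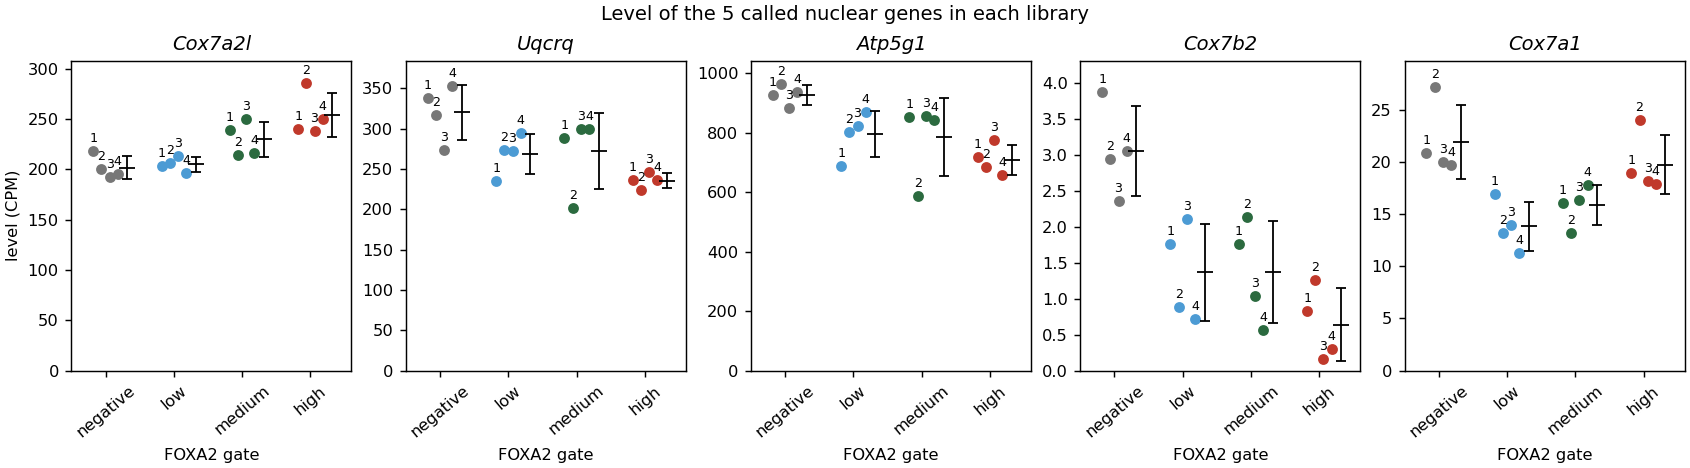
Level (CPM) of the 5 nuclear genes called in any comparison, in each library by FOXA2 gate; numbers are library numbers and bars are mean ± SD (n = 4). Atp5g1 and Cox7b2 are higher in every negative library than in the other gates, Cox7a2l is highest in the high gate, and Cox7a1 has its lowest mean in the low gate.

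The other nuclear genes of each complex did not pass the test in high against negative. Among the 38 of complex I the log2 fold changes ran from -0.34 (Ndufc2, SE 0.134, adjusted p = 0.0841) to 0.46 (Ndufs5, SE 0.458), and 34 lay within 0.25 of 0. The lowest adjusted p there was 0.0658, that of Ndufa3, at 0.31. The core subunit Ndufs1, which carries iron-sulfur clusters, was at 35.7 ± 3.42 and 32.9 ± 4.37 CPM, and Ndufv1, which binds NADH, at 205 ± 18.6 and 246 ± 24.4 (log2 fold change 0.26, SE 0.109, adjusted p = 0.104). Of the 7 assembly factors Ndufaf6 was lowest at -0.29 (SE 0.143, adjusted p = 0.174). The 4 genes of complex II lay between -0.15 (Sdhd) and 0.04 (Sdha). In complex III the values ran from Uqcrq up to 0.09 for Uqcr11, with 6 of 8 below 0. Uqcr10 was at 751 ± 55.9 CPM in negative and 626 ± 20.9 in high. The core gene Uqcrc1 was at -0.12 (SE 0.0944) and the iron-sulfur protein gene Uqcrfs1 at -0.04 (SE 0.0999). In complex IV the values ran from Cox7b2 up to 0.44 for Cox4i2 (SE 0.510), with 7 of 15 below 0. Cox7c, a gene with near-identical copies, was at 638 ± 74.9 CPM in negative and 501 ± 19.3 in high. In complex V the range was -0.46 for Atp5l, a gene with near-identical copies, to 0.30 for Atp5d (SE 0.111, adjusted p = 0.0561), and the catalytic genes Atp5a1 and Atp5b were at -0.13 and -0.06. Genes at the ends of these ranges, Uqcr10 and Cox7c were named after their values were seen.

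**Figure D4:**
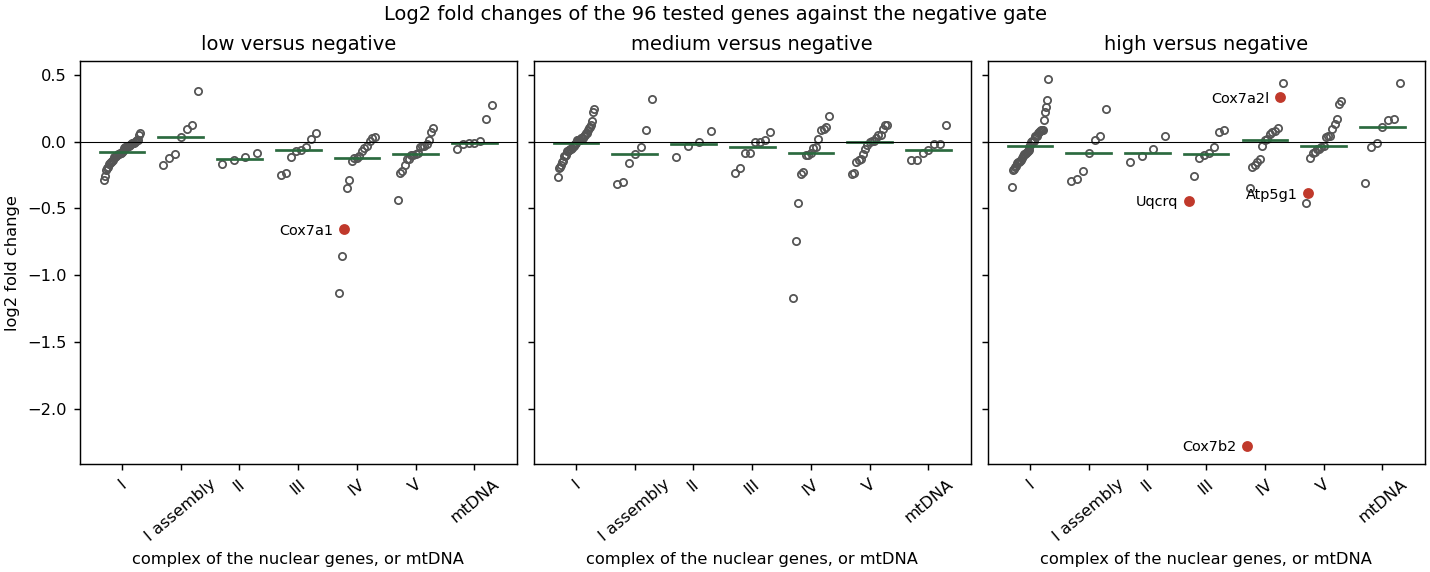
Log2 fold changes of the 96 tested genes against the negative gate, by complex, for the low, medium and high gates; filled red points passed the test (adjusted p under 0.05), open points did not, and lines are medians. Most points lie within 0.25 of 0 in each panel, and the 5 called points are named.

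In medium against negative 0 of 89 nuclear genes were called by edgeR, against a background of 4.24% of genes called higher and 4.22% lower. DESeq2 also called 0, and at an unadjusted p under 0.05 there were 1 higher and 6 lower by edgeR. The estimates lay within 0.25 of 0 in 82 of 89 genes. The median was -0.03 with 53 genes below 0, but medium 2 alone set this sign: without it the median was 0.07 with 33 below 0. Without low 1 and medium 2 they were again 0.07 and 33, and with negative 3 also left out 0.05 and 39. The lowest adjusted p was 0.0993, that of Cox7a1. Cox4i1, the main isoform of complex IV subunit 4, was at -0.24 (SE 0.10, adjusted p = 0.159). It went from 1566 ± 66.8 CPM in negative to 1327 ± 226 in medium, where medium 2 was at 991. The low libraries were at 1185 to 1333 CPM, below all negative ones (1467 to 1608). In low against negative Cox4i1 was not called in the main fit, but was with only the 2 groups and without medium 2.

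In low against negative 1 of 89 fell and 0 rose, against 1.47% of genes called higher and 2.29% lower. DESeq2 gave the same counts, and at an unadjusted p under 0.05 there were 0 higher and 9 lower by edgeR. The gene was Cox7a1, the heart and muscle isoform of a complex IV subunit (chr7:30184144-30186078, plus strand). It was at 20.8, 27.2, 20.0 and 19.7 CPM in negative, 16.9, 13.2, 13.9 and 11.3 in low, 16.1, 13.2, 16.4 and 17.8 in medium and 18.9, 24.0, 18.1 and 17.9 in high. The low libraries lay below all negative and all high ones, and high and negative overlapped. The log2 fold change was -0.66 (SE 0.172, adjusted p = 0.0245). The call was lost without negative 2, low 2, low 3 or low 4, with an adjusted p of up to 0.134 over all alternative fits. The sum of 5 muscle or heart markers ranged from 12.8 to 14.2 CPM in negative and from 10.6 to 18.7 in low. The isoform Cox7a2 was at 677 ± 86.9 CPM in negative and 614 ± 88.1 in low (log2 fold change -0.14, SE 0.123, adjusted p = 0.681).

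In low against negative most nuclear estimates lay slightly below 0, though the summed levels of these gates overlapped (above). Of 89, 72 (80.9%) had an estimate below 0, against 47.4% of all genes, and the median was -0.09 against 0.02. By complex this held for 33 of 38 genes of complex I, 4 of 4 of II, 6 of 8 of III, 12 of 15 of IV and 14 of 17 of V, but for 3 of 7 assembly factors and 4 of 7 mitochondrial genes. Low 1 had the lowest value of its gate in 61 of the 89. Genes of a library thus moved together, and these counts are not counts of independent values. Without low 1 the count below 0 was 61 and the median -0.04, and without low 1 and medium 2 they were 59 and -0.04. Leaving out negative 3 moved them the other way, to 78 and -0.12 when it alone was left out and to 70 and -0.07 when all 3 libraries were. The part of this library in the shift beyond these values was not tested, and the 3 comparisons with negative share its 4 libraries.

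Between the gates with FOXA2, few of the nuclear genes were called. In high against low 1 nuclear gene rose, Cox7a2l, and 0 fell, against 3.79% and 3.08% of all genes. DESeq2 gave the same counts, and by edgeR at an unadjusted p under 0.05 there were 8 higher and 3 lower. In high against medium edgeR called 0 nuclear genes against 0.367% called higher and 0.547% lower. DESeq2 also called 0, and by edgeR there were 2 higher and 1 lower at an unadjusted p under 0.05. In medium against low edgeR and DESeq2 called 0, against 0.490% and 0.223% by edgeR. By edgeR 1 gene was lower at an unadjusted p under 0.05. In these last pairs of gates few genes of any kind were called. In medium against low the nuclear median was 0.06 with 22 of 89 below 0, against 51.5% of all genes. It was 0.16 with 14 below 0 without medium 2, and 0.02 with 37 without low 1. In high against medium the nuclear median was -0.0045 with 45 below 0, and -0.10 with 65 without medium 2. In high against low it was 0.05 with 27 below 0, and 0.02 with 41 without low 1. Over the 6 comparisons 5 of the 89 nuclear genes were called in at least 1 and 84 in none, against 19.9% of all tested genes called in at least 1.

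The libraries that stood apart on the third component changed these counts. Without low 1 and medium 2, high against negative had 4 higher (Atp5d, Cox7a2l, Ndufa3 and Ndufv1) and 7 lower (Atp5g1, Cox7b2, Cox7c, Ndufaf2, Ndufc2, Uqcr10 and Uqcrq). Medium against negative then had 3 higher, low against negative 2 lower (Cox4i1 and Cox7a1), and high against medium 1 higher (Atp5d) and 2 lower (Atp5g1 and Uqcrq). With negative 3 also left out, high against negative had 3 higher and 10 lower.

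Of the tested mitochondrial genes 0 of 7 were called in any comparison by edgeR or DESeq2, and 0 had an unadjusted p under 0.05 by edgeR. ND1 was at 15434, 16739, 14277 and 18855 CPM in negative and 16106, 15949, 14963 and 17936 in high, with a log2 fold change of -0.01 (SE 0.147). CYTB, the core of complex III, was at 1823 ± 46.04 CPM in negative and 2050 ± 83.3 in high, where every high library lay above every negative one (1761 to 1871 against 1925 to 2098). Its log2 fold change was 0.17 (SE 0.105, adjusted p = 0.304). ND2 was at 841 ± 109 CPM in negative and 905 ± 89.6 in high, and ND5 at 378 ± 112 and 511 ± 117. ND4 ranged from 499.8 to 687 CPM in negative and from 623 to 712 in high. COX1 was at 127 ± 40.2 and 102 ± 19.8 and ND6, encoded on the other strand, at 7.82 ± 4.01 and 7.33 ± 1.97. The intervals of ND5, ND6 and COX1 are wide (SE 0.270, 0.346 and 0.364), so a change of moderate size was not detectable in them.

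Isoform pairs of complex IV were read side by side because tissues swap them. Cox6a1 was at 665 ± 43.1 CPM in negative and 713 ± 25.03 in high, while its muscle counterpart Cox6a2 had 15 counts in all. Cox6b1 was at 844 ± 72.8 and 877 ± 40.7, and the testis-type Cox6b2 at 45.6 ± 5.03 and 47.9 ± 4.18 (log2 fold change 0.07, SE 0.129). Cox8a was at 506 ± 48.2 and 444 ± 18.9 (log2 fold change -0.19, SE 0.0991, adjusted p = 0.212), with the muscle gene Cox8b at 0 and the testis gene Cox8c at 29 counts over all libraries. Cox4i2, the isoform known from lung and from low oxygen, was at 1.67 ± 0.535 CPM in negative, 0.932 ± 0.445 in low, 0.991 ± 0.535 in medium and 2.26 ± 0.961 in high, with adjusted p of 0.628 in high against negative and 0.176 in high against low. Ndufa4, placed in complex I by name, was at 214 ± 19.5 CPM in negative and 227 ± 29.4 in high. Its low-oxygen relative Ndufa4l2 was at 2.80 ± 0.625 and 2.32 ± 1.39.

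Genes that act beside the complexes were read from lists drawn up with earlier results known. Their counts in high against negative stand against the same shares of all tested genes as above, 8.42% called higher and 8.55% called lower. Among 10 tested carriers, 2 fell in high against negative. They were the ADP/ATP exchangers of the inner membrane, Slc25a5, from 216 ± 25 to 135 ± 11 CPM (log2 fold change -0.68, SE 0.117, adjusted p = 8.9e-05), and Slc25a4, from 713 ± 56 to 529 ± 38 (-0.43, SE 0.104, adjusted p = 0.00386). Slc25a5 also fell in medium (-0.55, adjusted p = 0.00166) and low (-0.48, adjusted p = 0.0137) against negative, though the call in low was lost without negative 1 or low 1 (adjusted p up to 0.0746). Among 38 tested assembly factors outside the name rule, 1 rose and 3 fell. Cox20, a chaperone of COX2, rose from 48.0 ± 3.9 to 77.7 ± 8.1 CPM (0.69, SE 0.126, adjusted p = 0.000171). Ecsit, a complex I assembly factor, fell from 71.9 ± 5.9 to 48.5 ± 4.2 (-0.57, SE 0.112, adjusted p = 0.000495), and also in medium (-0.54) and low (-0.45), where the call in low was lost with no filter, when thinned and without negative 1, negative 2 or low 4 (adjusted p up to 0.0744). Atpaf1, which helps to assemble complex V, fell by 0.61 on the log2 scale (adjusted p = 0.0124), a call lost without negative 4 or high 1 (adjusted p up to 0.0661). Higd1a fell by 0.43 (adjusted p = 0.0319). Its call held in 18 of 25 alternative fits and was lost when thinned and without negative 1, 2 or 4 or high 1, 2 or 3 (adjusted p up to 0.159).

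Of 20 tested genes of the citrate cycle and pyruvate dehydrogenase, 2 fell in high against negative and the others did not pass, near the 8.55% of all genes called lower. Ogdh, a citrate cycle dehydrogenase, went from 94.3 ± 6.4 to 64.8 ± 6.8 CPM (-0.54, SE 0.119, adjusted p = 0.00151), and Pdha1, of pyruvate dehydrogenase, fell by 0.36 (adjusted p = 0.0489). The Pdha1 call held in only 12 of 25 alternative fits, and in 5 of 16 that left out a single library (negative 4, low 1, medium 2, medium 4 or high 2), with an adjusted p of up to 0.159. Pdk1, the kinase that switches pyruvate dehydrogenase off, fell in low (-0.77, adjusted p = 0.000839) and medium (-0.64, adjusted p = 0.00322) against negative and was at -0.27 (adjusted p = 0.212) in high. Among 17 tested genes of mitochondrial genome expression 2 fell and the others did not pass: Top1mt, the mitochondrial topoisomerase, at -1.04 (SE 0.190, adjusted p = 0.000183) and Ssbp1, the single-strand binding protein, at -0.36 (adjusted p = 0.0223). The Ssbp1 call was lost with no filter and without negative 2, negative 4 or high 2 (adjusted p up to 0.0995). Tfam, which packages mitochondrial DNA, was at -0.17 (SE 0.130, adjusted p = 0.428). Of 11 tested regulators 2 passed the test and fell, Esrrb, which is also a pluripotency gene, at -2.50 and Pprc1 at -0.42 (adjusted p = 0.0269), the latter not called without negative 2 or 3 or high 1, 2 or 4 (adjusted p up to 0.112), while Nrf1 was at -0.05 (SE 0.128, adjusted p = 0.853).

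**Figure D5:**
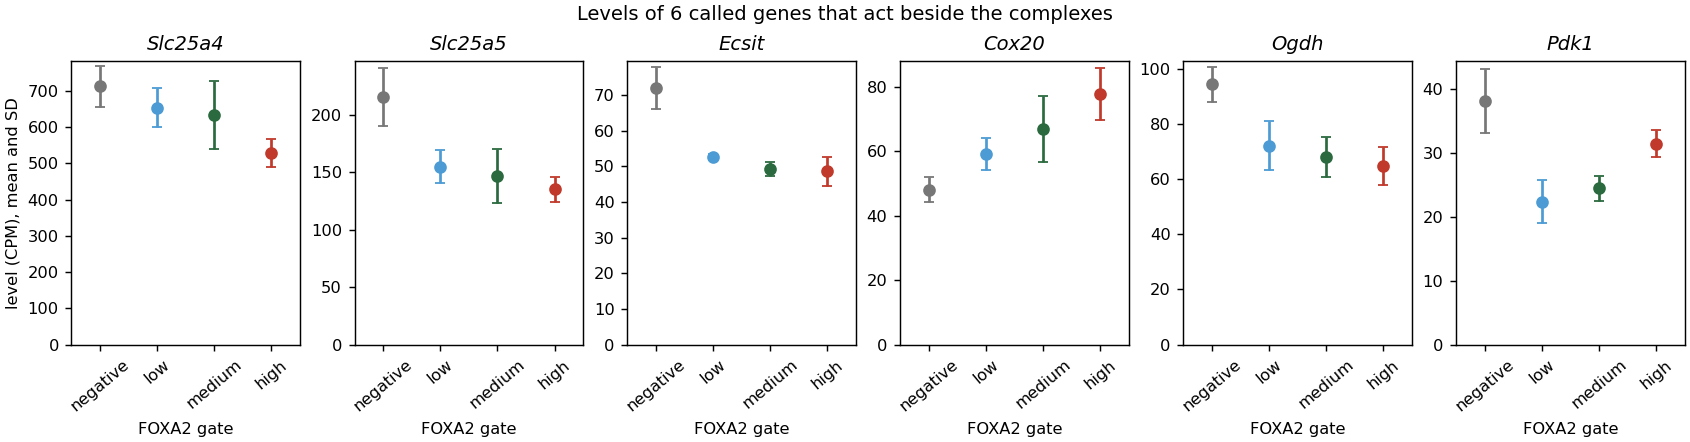
Mean level (CPM) and SD (n = 4) by FOXA2 gate of 6 genes that act beside the complexes. Slc25a4, Slc25a5, Ecsit and Ogdh have lower means in high than in negative cells, Cox20 has a higher one, and Pdk1 has its lowest mean in the low gate.

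Of 14 tested genes of electron carriers 1 rose and 2 fell in high against negative, against 8.42% and 8.55% of all tested genes. Coq2, of ubiquinone synthesis, rose by 0.56 (adjusted p = 0.0230), and Coq5 of the same pathway and Etfdh, which passes electrons to ubiquinone, were at -0.33 and -0.76 (adjusted p = 0.0388 and 0.0259). All 3 calls were lost in some fits. Coq2 was not called when thinned or without negative 3, negative 4 or high 4 (adjusted p up to 0.138). Coq5 was not called with no filter, when thinned, or without negative 2 or 4 or high 1, 2 or 4 (up to an adjusted p of 0.140), and Etfdh not without negative 2 or 4 or high 1, 2 or 3 (up to an adjusted p of 0.0764). Cytochrome c (Cycs) was at -0.29 (SE 0.127, adjusted p = 0.128) and cytochrome c1 (Cyc1), a complex III subunit that the name rule leaves out, at -0.16 (SE 0.0870, adjusted p = 0.214). Of 11 tested genes known to be induced by low oxygen, Vegfa rose and Ndrg1 and Higd1a fell in high against negative. In that comparison 10 of the 11 lay below 0, against 49.7% of all genes, and their median was -0.31. Ndrg1 went from 6.30 ± 1.7 to 0.293 ± 0.25 CPM (-4.29, adjusted p = 9.53e-06). Vegfa went from 1.94 ± 1.1 to 6.56 ± 3.8 (1.76, adjusted p = 0.0131), and was not called without high 4 (adjusted p = 0.0736). In medium against negative 4 of the 11 fell, Ndrg1, Pdk1, Ldha and Bnip3, against 4.22% of all genes called lower. The call of Ldha held in 13 of 25 alternative fits and that of Bnip3 in 23.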

How the data were processed

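The authors deposited 1 table of raw counts, whole numbers per gene for 16 libraries, with no normalization. Per the submitters' processing notes, cutadapt 1.18, STARsolo 2.7.9a, DESeq2 1.42.0 and the build GRCm38 were used; settings, annotation, strand and molecular identifiers: not given in the sources used here. Table columns were assigned by sample name. Counts were fitted with edgeR 4.0.16 (R 4.3.3): default expression filter, TMM scaling, robust quasi-likelihood fit of the 4 gates, 6 comparisons, Benjamini-Hochberg adjustment over 13891 genes, threshold 0.05. All adjusted p-values come from this edgeR test. CPM are counts over the scaled library total. SE is the log2 fold change over the square root of F. The smallest total makes 1 count worth 0.304 CPM; intervals and counts of 0 cover counting error only. Within gates, the smallest chi-square per degree of freedom between libraries was 4.31, so none was counted as a duplicate. The largest values were those of negative 1, at 22.0 to 36.9 against 6.28 to 10.6 among the other negative libraries. Copies were sought with BLAST 2.17.0 in GENCODE M21 transcripts, where 91 of 92 nuclear symbols were found. Named genes were those called, all mitochondrial genes, isoform sets, core subunits and up to 4 called genes of each further list; others are named as such. Members and lists were chosen with earlier results of these data known. Steps were tested on simulated data. Alternatives were RLE scaling, plain totals, DESeq2 1.42.0, no filter, thinning to 3268948 counts, a replicate block, library sizes from nuclear genes, 2 groups only and leaving out each library. Leaving out low 1 and medium 2, without and with negative 3, was added after the data were seen.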

Additional observations from a re-analysis of the deposited data

Results flagged for a closer look

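In each gate of 4 libraries the highest or lowest value was flagged when its gap to the nearest other exceeded Dixon's critical value for 4 samples as a share of the range. Of 164 sets of values examined 18 were flagged, where chance flags about 1 in 20 independent sets. The sums hold the single genes, so the sets are not independent and the count cannot be set against that rate. Medium 2 was far below its gate in 7 of them. It had 24103 CPM summed over the nuclear genes (nearest other 31092), 8582 for complex I, 2415 for complex III and 5971 for complex IV, and 202 CPM for Uqcrq, 588 for Atp5g1 and 991 for Cox4i1. Low 1 was lowest in its gate for the complex I sum (9434 against 10840) and for Sdhb (312 against 390), and highest for ND6 (15.8 against 7.57). Negative 3 was lowest for Cox4i1 (1467 against 1585). These 3 libraries are those that stood apart on the third principal component.

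The other flags fell on single genes. Cox7a1 was high in negative 2 (27.2) and high 2 (24.0 CPM), and negative 2 is one of the libraries without which the low against negative call of Cox7a1 was lost. ND2 was high in low 2 (1001), COX1 was high in low 4 (201 against 103), and Uqcrc1 was low in low 2 (486). CYTB was lowest in high 3 (1925) and Ndufs1 highest in high 4 (39.5 CPM).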

How the results depend on the processing

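The falls of Uqcrq, Atp5g1 and Cox7b2 were called under every alternative that gave a value, and no called gene changed direction. The median over nuclear genes did change sign in medium against negative, from -0.03 to 0.07 without medium 2 or without low 1 and medium 2 and to 0.05 with negative 3 also left out, and in high against medium, from -0.0045 to between 0.0058 and 0.0221 without medium 1, medium 3, medium 4 or high 1. The count of nuclear genes higher in high against negative (1) was 3 with no filter, 2 when thinned, 5 with only the 2 groups, 4 without low 1 and medium 2, 3 without negative 3 as well, and 0 to 4 with single libraries left out, 0 without high 2 and 4 without medium 2. The count lower (3) was 6 with only the 2 groups, 7 and 10 with those libraries left out, and up to 6 with single libraries left out, without medium 2. In low against negative the count lower (1) was 0 when thinned and 2 with only the 2 groups. It was 2 and 3 without the libraries that stood apart on the third component, and 0 to 3 with single libraries left out. In medium against negative the count higher (0) was 3 and 1 without those libraries and 0 to 2 with single ones left out. In high against low the count higher (1) was 0 with RLE scaling, with no filter and when thinned, 2 and 3 without those libraries, and 0 to 1 with single ones left out; the count lower (0) was 1 when thinned and 2 and 3 without them. In high against medium, 1 gene was higher in both fits without them, and 2 and 6 were lower. Over all genes, high against medium had 127 calls, 222 with no filter and 324 and 378 without those libraries, and medium against low had 99, 161 by DESeq2, 189 with no filter and 57 with only the 2 groups. The causes of these shifts were not tested. The count of genes below 0 in low against negative (72) ran from 61 to 78 with single libraries left out.

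With the replicate number as a block (replicate block), 1 nuclear gene was higher and 3 were lower in high against negative, and no count of nuclear or mitochondrial calls moved. Same-numbered libraries correlated between -0.082 and 0.216 (median 0.0291, 24 pairs, 6 over 0.1), which fell short of every pair being over 0.1, so the numbers were not taken to pair the samples. As a hint from the data towards a shared set, 11 of 16 libraries correlated best with their own number, and negative 4, low 4 and medium 4 correlated with each other at 0.172 to 0.216. Depth limits Cox7b2, Cox4i2, Ndufa4l2 and ND6, whose counts are low.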
